A study of Homo sapiens with 26 samples.

Results

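The genes described are TXNIP, its arrestin-domain relatives ARRDC1, ARRDC2, ARRDC3 and ARRDC4, and the transcription factor pair MLX and MLXIP (MLXIP encodes MondoA). They are 7 of the 19704 gene symbols in the deposited expression table, picked by symbol, and each stood on 1 row. All 7 had a mean of at least 1 FPKM (fragments for each kilobase of a transcript, relative to library size) and were among the 11838 genes tested. The set was picked with the difference between acidic and neutral medium already known, so that difference is given for these genes as a description and carries no test. The question was when the difference between the media began, whether it levelled off and how large it became.

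The cells were U2OS, an established human osteosarcoma line, carrying a luciferase reporter of the clock gene Arntl (Arntl::dLUC). They received medium set to neutral pH (7.4) or to acidic pH (6.3), both made with DMEM, 5% FBS, PIPES and HEPES in place of bicarbonate, and with dexamethasone, a synthetic glucocorticoid that sets cellular clocks in step. Every dish carried the reporter, received dexamethasone and was sealed in air without added CO2. The groups differed in the pH of the medium alone, as far as the labels say. Polyadenylated RNA was sequenced every 4 h from 4 to 52 h, with 1 library for each medium and time, 26 in all. The dishes of 28 to 52 h came from a first set of plates and those of 4 to 24 h from a second set, and both media were harvested side by side at each time. The labels give no clone or passage, and all dishes share 1 line, so the values describe this line.

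Depth, estimated from the spacing of low values, was 19.6 to 35.8 M fragments (M for mega) in 24 libraries, 9.71 M at pH 7.4 and 12 h, and 11.1 M at pH 6.3 and 8 h. Low values lay at 1, 2 and 3 steps of that spacing (2720, 1402 and 857 values) and hardly at the 2 positions that a 3 times finer spacing would add below 1 step (14 and 20 values), so 1 step was taken as 1 fragment. The list of mesenchymal and osteoblast markers had a summed level of 3712 to 5777 FPKM at pH 7.4 and 2504 to 3924 FPKM at pH 6.3, led by FN1, SPARC and VIM. Of its osteoblast genes, RUNX2 was at 16.7 to 38.7 FPKM, but SP7 was listed at 0 in every library, BGLAP was at most 0.713 FPKM and ALPL had a median of 1.52 FPKM, and the collagen gene COL1A2 was at most 1.70 FPKM. Leukocyte markers summed to at most 9.81 FPKM in any library, led by the lysosomal gene CD68, epithelial markers to at most 18.1 FPKM and endothelial markers to at most 3.06 FPKM. The part of these shifts in the results was not tested. In 4 libraries the deviation of genes from their mean followed the GC content of the transcript most strongly. The correlation was 0.65 at pH 7.4 and 28 h, −0.54 at pH 7.4 and 44 h, −0.63 at pH 7.4 and 48 h, and 0.58 at pH 6.3 and 20 h. In the other libraries it lay between −0.31, at pH 7.4 and 40 h, and 0.26, at pH 6.3 and 48 h. Libraries with a GC correlation below means those 4, although the others were not free of it. In bulk RNA, fewer cells that express a gene and less RNA of it in each cell cannot be told apart.

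TXNIP and the ARRDC proteins are alpha-arrestins, adaptors with an arrestin fold that bring ubiquitin ligases of the NEDD4 family to membrane proteins. TXNIP binds and inhibits thioredoxin and promotes removal of glucose transporters from the cell surface, and ARRDC4 is its closest relative. MondoA and its partner MLX form a heterodimer that is held outside the nucleus until glucose 6-phosphate rises, then binds pairs of E boxes called carbohydrate response elements. TXNIP and ARRDC4 are among its best known target genes, and TXNIP in turn limits glucose uptake, which makes a feedback loop.

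The promoter sequences of TXNIP and ARRDC4 are shown because these genes had the largest differences in the set. Each covers 250 bases around and before the start site in the RefSeq promoter table (GRCh38.p14), written 5′ to 3′ on the strand of the gene. Capitals mark the paired E boxes of TXNIP, which match the spelling CACGNG, 5 free bases, CACGNG (N is any base), and the E box CACGTG of ARRDC4.
TXNIP promoter, chr1:145996580-145996829, minus strand: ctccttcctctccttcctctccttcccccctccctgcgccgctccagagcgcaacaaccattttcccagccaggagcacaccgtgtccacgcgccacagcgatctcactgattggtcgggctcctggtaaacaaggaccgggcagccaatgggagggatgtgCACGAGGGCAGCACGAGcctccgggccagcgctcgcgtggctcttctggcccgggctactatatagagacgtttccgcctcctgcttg
ARRDC4 promoter, chr15:97960453-97960702, plus strand: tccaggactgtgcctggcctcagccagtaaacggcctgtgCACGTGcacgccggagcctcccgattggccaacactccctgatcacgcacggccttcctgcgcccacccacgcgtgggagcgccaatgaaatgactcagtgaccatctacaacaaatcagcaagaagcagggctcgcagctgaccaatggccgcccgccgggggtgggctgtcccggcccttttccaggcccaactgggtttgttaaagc
The first base of the TXNIP match lay 88 bases before the start site. That spelling, read on both strands, was found in 16 of 35116 promoters of the same length (0.0456%), and TXNIP was the single member that held it. A looser spelling with CNCGNG as the second box, which includes it, was in 0.424% of promoters. The E box of ARRDC4 lay 210 bases before its start, MLX also held a CACGTG 50 bases before its start, and 6.34% of all promoters did. The motif CCAAT was present in 32.0% of promoters, and beside the TXNIP element it stood 105 bases before the start. All 7 members were in the table, and TXNIP, ARRDC2 and ARRDC3 had 2 start sites each. The sequence shown for TXNIP is that of its first start site, and the window of its second held none of these motifs. A match describes letters in this window and is not evidence of binding.

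TXNIP (ENSG00000265972) lies on the minus strand of chromosome 1, from 145992435 to 145996600 in GRCh38. At pH 7.4 it stayed low, at 1.57, 4.12, 8.17, 6.38, 4.62 and 2.49 FPKM from 4 to 24 h and at 1.71, 4.53, 4.46, 4.89, 4.08, 2.94 and 3.04 FPKM from 28 to 52 h. At pH 6.3 it was 26.2, 87.2, 169, 276, 220 and 199 FPKM from 4 to 24 h, and 166, 201, 228, 249.7, 255, 249 and 271 FPKM from 28 to 52 h. The lowest acidic library, that of 4 h, lay above the highest neutral library, that of 12 h, so the groups did not overlap. TXNIP was the single member of which this was true, in a table where 1.28% of tested genes had all acidic libraries above all neutral ones. Its mean log2 difference, pH 6.3 minus pH 7.4 on log2(FPKM + 1), ranked first of the 11838 genes tested.

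The TXNIP difference was already present at the first time measured. At 4 h TXNIP was 16.7-fold higher in acidic medium in FPKM, and the log2 difference was 3.40. It was 4.11 at 8 h and 4.21 at 12 h, 5.23 at 16 h and 5.29 at 20 h, and 5.84 at 24 h. From 28 to 52 h it ran between 5.19, at 32 h, and 6.07, at 52 h, where the fold was 89.1. The largest fold in FPKM was 97.2 at 28 h, over the neutral 1.71 FPKM of a library with a GC correlation of 0.65. With onset defined as the first time from which the difference was at least 2-fold then and at every later time, TXNIP had its onset at 4 h, so the true onset lies at or before that time. Only 0.0929% of tested genes (11) had an onset of increase this early, while 7.97% had one at some time.

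Most of the change over time in the acidic libraries lay within the first 16 h. Between 4 and 16 h the acidic level of TXNIP went from 26.2 to 276 FPKM, and after that it stayed between 166 and 276 FPKM. The log2 difference reached 80% of its mean over 40 to 52 h (5.78) at 16 h and stayed above that share. With 90% in place of 80% the plateau began at 36 h, since the 5.19 of 32 h fell just short of that share. By window, the difference was 3.91 ± 0.44 over 4 to 12 h, 5.45 ± 0.33 over 16 to 24 h and 5.51 ± 0.39 over 28 to 36 h (SD, n = 3 times each), and 5.78 ± 0.30 over 40 to 52 h (SD, n = 4 times). The last 3 windows differed by less than the sum of their SDs. The acidic level fell from 199 FPKM at 24 h to 166 FPKM at 28 h, where the libraries change from the second set of plates to the first, and plate set and time cannot be told apart there.

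**Figure D1:**
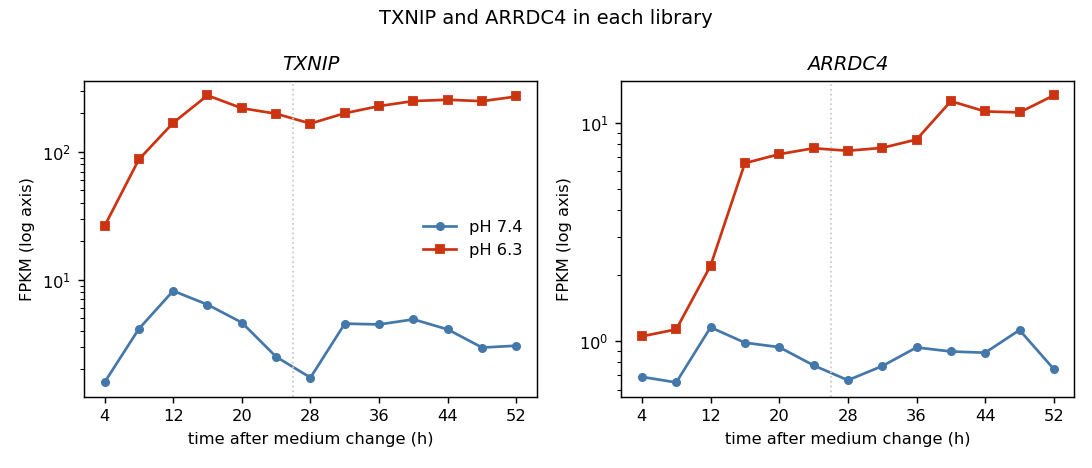
FPKM (log axis) of TXNIP and ARRDC4 in each library against hours after the medium change, with pH 7.4 in blue circles, pH 6.3 in red squares and a dotted line between the 2 sets of plates. TXNIP is apart from 4 h on, at 26.2 against 1.57 FPKM, while ARRDC4 separates clearly at 16 h, at 6.53 against 0.984 FPKM.

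ARRDC4 (ENSG00000140450), an alpha-arrestin that like TXNIP acts on glucose transporters, lies on the plus strand of chromosome 15 from 97960698 to 97973838. At pH 7.4 it was near the lower limit of the filter, between 0.648 FPKM at 8 h and 1.16 FPKM at 12 h, with a median of 0.886 FPKM. At pH 6.3 it was 1.05, 1.13, 2.22, 6.53, 7.18 and 7.65 FPKM from 4 to 24 h and 7.45, 7.68, 8.38, 12.6, 11.3, 11.2 and 13.3 FPKM from 28 to 52 h. In 11 of the 13 acidic libraries it was above the highest neutral library, and the 2 exceptions were those of 4 and 8 h. The neutral values rest on an estimated 43.5 to 139 fragments a library and the acidic ones on 48.5 to 1393, so the folds at early times are the less precise ones.

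The ARRDC4 difference passed 2-fold later than that of TXNIP and was larger late than early. The log2 difference was 0.28 at 4 h, 0.37 at 8 h and 0.58 at 12 h, then 1.92 at 16 h, which was its onset by the 2-fold rule. In FPKM the fold was 1.53 at 4 h, 6.64 at 16 h and 17.9 at 52 h. From 20 to 36 h the log2 difference was nearly flat, between 2.08 and 2.34, and from 40 to 52 h it lay between 2.52 and 3.04. It reached 80% of its late mean (2.77) at 24 h and 90% at 40 h. After a correction of each library for GC content the 80% share was also reached at 40 h. By window the difference was 0.41 ± 0.15, 2.10 ± 0.18 and 2.30 ± 0.04 over 4 to 12, 16 to 24 and 28 to 36 h (SD, n = 3 times each) and 2.77 ± 0.22 over 40 to 52 h (SD, n = 4 times).

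Over the 13 times the mean log2 difference was 5.21 ± 0.82 for TXNIP and 1.96 ± 0.94 for ARRDC4 (SD, n = 13 times), and both were higher in acidic medium at 13 of 13 times. Of all tested genes 4.43% were higher at every time. ARRDC4 ranked at 25 of 11838 by its mean difference, and the median of all tested genes was −0.12. A pseudocount of 1 lowers the difference of a gene near 1 FPKM: with 0.1 the ARRDC4 mean was 2.66.

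ARRDC3 (ENSG00000113369, chromosome 5 from 91368724 to 91383359, minus strand) encodes an adaptor that brings NEDD4 ligases to receptors such as the beta-adrenergic receptor. At pH 7.4 its level was 3.86 FPKM at the lowest (28 h), 5.08 at the median and 10.5 at the highest (12 h). At pH 6.3 it was 4.44 FPKM at the lowest (8 h), 10.3 at the median and 19.1 at the highest (52 h). The groups overlapped: 6 of the 13 acidic libraries lay above every neutral one, and the highest neutral value was at the library of 9.71 M fragments.

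The ARRDC3 difference was near or below 0 up to 12 h and above it afterwards. The log2 difference was 0.01 at 4 h, −0.50 at 8 h and −0.36 at 12 h, then 1.07 at 16 h. After that it lay between 0.83, at 24 h, and 1.67, at 52 h. ARRDC3 thus passed 2-fold at the same time as ARRDC4, but the single value under 1 at 24 h put its onset by the 2-fold rule at 28 h. A 1.5-fold rule put it at 16 h, and quantile or upper-quartile scaling at 52 h, so this onset is not well fixed by the data. Its mean was 0.85 ± 0.69 (SD, n = 13 times), with 11 times higher.

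ARRDC1 (ENSG00000197070, chromosome 9 from 137605654 to 137615360, plus strand) recruits the ESCRT machinery and drives budding of vesicles from the plasma membrane. Its level was 1.84 FPKM at the lowest, 3.10 at the median and 8.87 at the highest at pH 7.4, and 2.26, 3.49 and 7.47 FPKM at pH 6.3. The ranges overlapped almost wholly, and no acidic library was above the highest neutral one. The log2 difference ran from −1.42 at 28 h to 1.32 at 48 h, with a mean of 0.15 ± 0.68 (SD, n = 13 times) and 7 times higher. The high neutral value (28 h) and the high acidic value (20 h) were in libraries where GC-rich genes were high, and ARRDC1 transcripts have a GC content of 63.0%. With the GC correction the SD of the difference over times was 0.24 and the mean 0.13.

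ARRDC2 (ENSG00000105643, chromosome 19 from 18001132 to 18014102, plus strand), an adaptor of the same family, had a level of 4.15 FPKM at the lowest (48 h), 7.58 at the median and 11.9 at the highest (28 h) at pH 7.4. At pH 6.3 the lowest was 4.89 FPKM (8 h), the median 8.86 and the highest 17.1 (20 h). ARRDC2 transcripts have a GC content of 64.7%, and the neutral lowest and highest and the acidic highest, but not the acidic lowest, were in libraries with a GC correlation. A single acidic library, that of 20 h, was above all neutral ones. The mean log2 difference was 0.28 ± 0.54 (SD, n = 13 times), with 10 times higher, and 0.24 with an SD of 0.45 after the GC correction. Neither ARRDC1 nor ARRDC2 met the onset rule, so the lasting 2-fold differences in this gene family were those of TXNIP, ARRDC4 and ARRDC3.

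MLXIP (ENSG00000175727, chromosome 12 from 122078722 to 122147347, plus strand) encodes MondoA, the glucose-sensing subunit. At pH 7.4 its level was 7.53 FPKM at the lowest (44 h), 13.3 at the median and 18.4 at the highest (28 h). At pH 6.3 it was 9.205, 9.82, 13.8, 13.2, 27.3 and 24.1 FPKM from 4 to 24 h, and between 19.2 and 31.0 FPKM from 28 to 52 h. The acidic level of 4 h was below that of every acidic library after it, and 9 acidic libraries were above all neutral ones. The log2 difference was −0.51 at 4 h, −0.22 at 8 h, −0.08 at 12 h and −0.19 at 16 h, then 0.98 at 20 h. It was at least 1.06 from 32 h on, which made 32 h the onset, and highest at 44 h, at 1.87.

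Part of the MLXIP time course fell in libraries at the ends of the GC range. The difference of 0.06 at 28 h and those of 1.87 and 1.70 at 44 and 48 h came from neutral libraries with the GC correlations given above, and that of 0.98 at 20 h from such an acidic library. With the GC correction the values at 28, 44, 48 and 20 h were 0.80, 1.52, 1.04 and 0.77, and the onset was again 32 h. The mean over 13 times was 0.67 ± 0.77 as deposited and 0.73 with an SD of 0.65 corrected, with 9 and 11 times higher. MLXIP thus passed 2-fold after TXNIP and ARRDC4 had, in both versions of the values.

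MLX (ENSG00000108788, chromosome 17 from 42567068 to 42573239, plus strand), the partner that MondoA needs to bind DNA, had close levels in both media. Its level was 21.0 FPKM at the lowest (48 h), 27.4 at the median and 34.3 at the highest (28 h) at pH 7.4. At pH 6.3 these were 22.8 (8 h), 30.3 and 33.4 FPKM (20 h). The log2 difference lay between −0.22 and 0.56 at every time, with a mean of 0.14 ± 0.23 (SD, n = 13 times) and 9 times higher. The lowest and highest neutral values and the highest acidic value were in libraries with a GC correlation. With the GC correction the mean was 0.26 with an SD of 0.17, and MLX was higher at 12 times. The ratio of MLXIP to MLX was 0.453 ± 0.076 at pH 7.4 and 0.696 ± 0.215 at pH 6.3 (SD, n = 13 libraries each), from 0.378 at 4 h to 1.03 at 52 h in acidic medium.

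**Figure D2:**
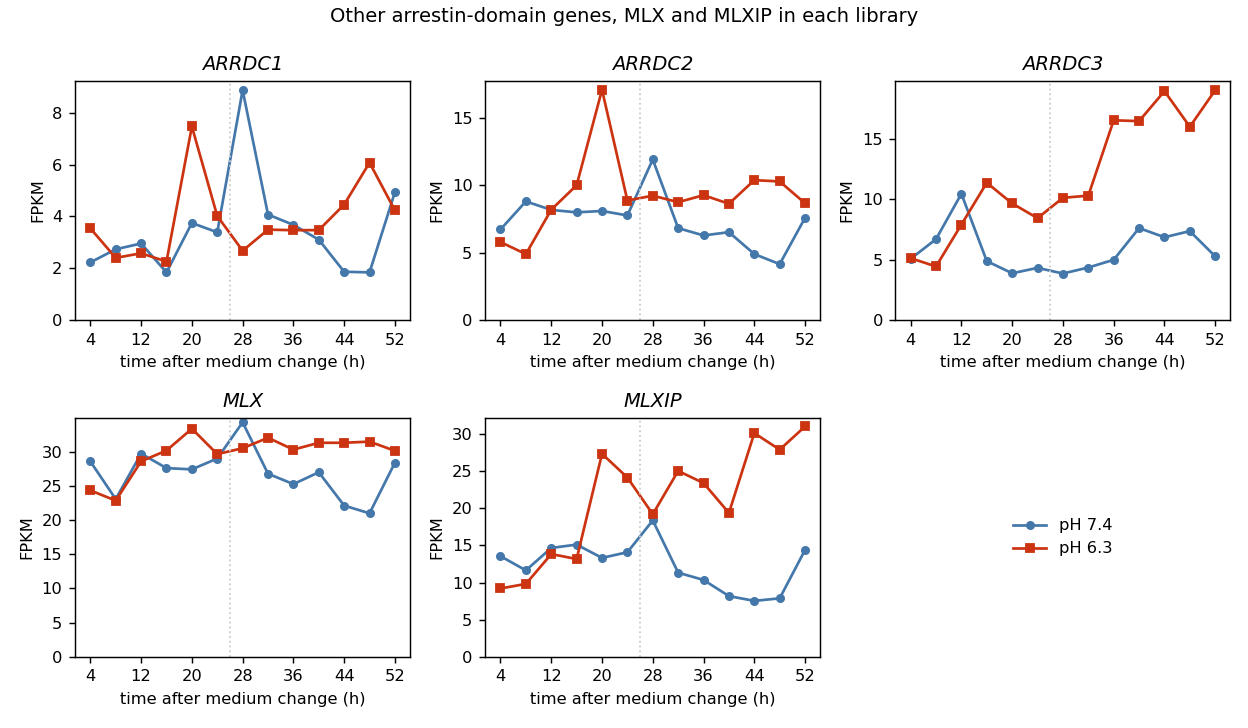
FPKM (linear axes) of ARRDC1, ARRDC2, ARRDC3, MLX and MLXIP in each library against hours after the medium change, in blue circles for pH 7.4 and red squares for pH 6.3. ARRDC3 and MLXIP are higher at pH 6.3 late in the series, while ARRDC1, ARRDC2 and MLX overlap and peak at 20 h (pH 6.3) and 28 h (pH 7.4), the libraries where GC-rich genes were high.

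Set side by side, the members passed 2-fold in an order: TXNIP by 4 h, ARRDC4 at 16 h and ARRDC3 also at 16 h, with a dip at 24 h. MLXIP stayed past 2-fold from 32 h on, and ARRDC1, ARRDC2 and MLX had no lasting 2-fold difference. Smaller differences lie below that rule. With the GC correction MLX was higher at 12 of 13 times, ARRDC2 at 10 and ARRDC1 at 7. In all, 4 of the 7 met the onset rule, each with an increase. The share of all tested genes with an onset of increase was 7.97%. Since the set was picked on this contrast, nothing is read from that share. By 16 h 130 genes of the table had their onset of increase.

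**Figure D3:**
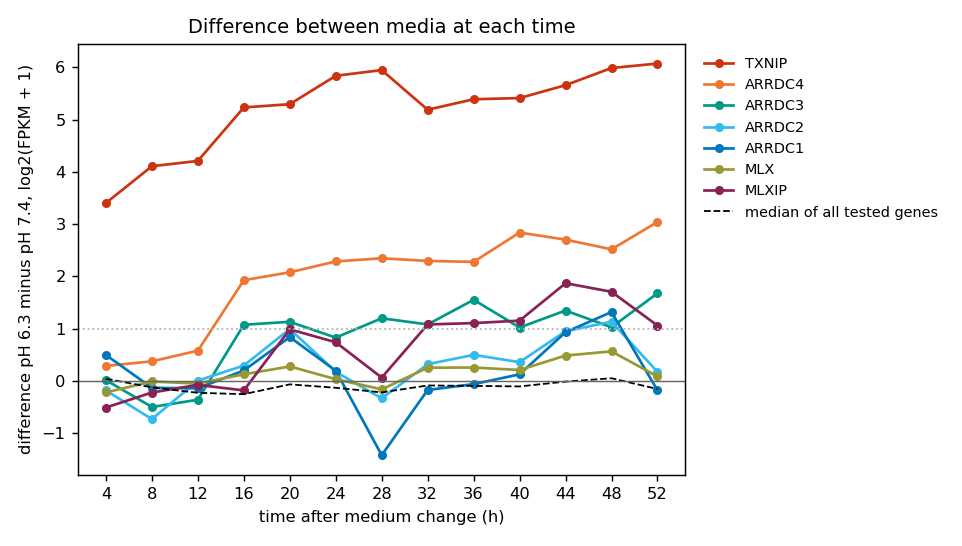
Log2 difference, pH 6.3 minus pH 7.4 on log2(FPKM + 1), of each member at each time, with the median of all tested genes as a dashed line and the 2-fold level as a dotted line at 1. TXNIP starts at 3.40 and ends at 6.07, ARRDC4 passes the dotted line at 16 h, and MLX stays between −0.22 and 0.56.

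The order of levels among the members also differed between the media. FPKM is per length, so levels can be set beside each other. At pH 7.4 the order of mean level was MLX (26.9 ± 3.51 FPKM), MLXIP (12.3 ± 3.23), ARRDC2 (7.36 ± 1.90), ARRDC3 (5.82 ± 1.91), TXNIP (4.08 ± 1.83), ARRDC1 (3.48 ± 1.87) and ARRDC4 (0.863 ± 0.166; SD, n = 13 libraries). Neighbours in this order differed beyond their ranges only at its ends, MLX above MLXIP and ARRDC1 above ARRDC4. At pH 6.3 the order was TXNIP (199.8 ± 73.6 FPKM), MLX (29.7 ± 2.97), MLXIP (21.0 ± 7.56), ARRDC3 (11.9 ± 5.01), ARRDC2 (9.23 ± 2.85), ARRDC4 (7.51 ± 4.08) and ARRDC1 (3.86 ± 1.49). Among neighbours there, TXNIP and MLX were the single pair whose mean ± SD did not overlap.

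Summed over the 5 alpha-arrestin genes, the level was 21.6 ± 3.94 FPKM at pH 7.4 and 232 ± 83.3 FPKM at pH 6.3 (SD, n = 13 libraries each). TXNIP made up 18.6 ± 6.46% of the sum in neutral medium. In acidic medium its share was 84.6 ± 6.76%, already 62.8% at 4 h and 90.2% at 16 h. The rest of the family thus made up the greater part of the sum in neutral medium and the lesser part in acidic medium.

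Within each medium, where the gap between the media plays no part, TXNIP had its highest correlation among the members with ARRDC4, although others were close at pH 6.3. Across the 13 libraries of pH 7.4 the Pearson correlation of log2 levels of TXNIP and ARRDC4 was 0.65, and with ARRDC3 it was 0.49. With the other members it was negative: −0.19 with MLX, −0.17 with MLXIP, −0.33 with ARRDC1 and −0.08 with ARRDC2. TXNIP, ARRDC4 and ARRDC3 each had their highest neutral value in the library of 12 h, that of 9.71 M fragments. The neutral correlations were not computed without that library, so how far they rest on it was not tested. Across the 13 libraries of pH 6.3 TXNIP had 0.84 with ARRDC4, 0.81 with MLX, 0.78 with ARRDC3 and 0.74 with MLXIP. With ARRDC2 it was 0.66 and with ARRDC1 0.23. There ARRDC4 was closer to ARRDC3 (0.91), MLXIP (0.88) and MLX (0.86) than to TXNIP. The libraries are successive times that share plate set and depth, so these are descriptions.

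Over all 26 libraries, the tested genes whose pattern was most like TXNIP were PELI2 (r = 0.98), YPEL5 (0.98), FOXO3 (0.97), VAMP2 (0.97) and KLHL15 (0.97), the members left out. These coefficients include the gap between the media, and nothing is read from them beyond likeness. FOXO3, a forkhead transcription factor, was at 3.67 ± 0.40 FPKM in neutral and 9.38 ± 1.92 FPKM in acidic libraries (SD, n = 13 each). VAMP2, a vesicle fusion protein, was at 11.7 ± 1.23 and 33.8 ± 8.42 FPKM, in the same order. YPEL5 was the most abundant of them, at 62.4 ± 4.78 and 116.9 ± 12.96 FPKM. Already at 4 h KLHL15, a ubiquitin ligase adaptor, was at 4.59 FPKM in acidic and 2.19 FPKM in neutral medium.

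The genes most like ARRDC4 were other genes than those most like TXNIP. They were EIF2S3 (r = 0.99), a subunit of translation initiation factor eIF2, SLC31A1 (0.98), a copper transporter, and SEC31A (0.98), part of the COPII coat of vesicles leaving the endoplasmic reticulum. SLC31A1 was 9.22 ± 0.73 FPKM at pH 7.4 and 44.8 ± 19.9 FPKM at pH 6.3 (SD, n = 13 libraries each). At 4 h SEC31A was at 135 FPKM in acidic and 139.9 FPKM in neutral medium, and EIF2S3 at 57.6 and 53.6 FPKM.

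Changes over time within neutral medium played no part in the choice of members and were tested, in fits whose estimate of the spread was shared with the acidic libraries. The first asked whether levels at pH 7.4 differed between 28 to 52 h and 4 to 24 h. None of the 7 members was called by limma with Benjamini-Hochberg adjustment over all 11838 genes, and none had an unadjusted p under 0.05. ARRDC4 averaged 0.863 FPKM at pH 7.4 and passed the filter of 1 FPKM through its acidic libraries, so its tests within neutral medium are on values below that filter. In that comparison 4.44% of all genes were called higher and 3.14% lower, and 2593 genes had an unadjusted p under 0.05. The log2 difference was −0.17 for TXNIP (SE 0.36, limma adjusted p = 0.842) and −0.33 for MLXIP (SE 0.21, limma adjusted p = 0.384), the member farthest from 0. With the 13 neutral libraries alone no member was called (TXNIP limma adjusted p = 0.740), while 612 genes were called higher and 491 lower. Over the alternatives the only member called was ARRDC1, with the GC correction (0.42, limma adjusted p = 0.0138). The calls over all genes rest on single times, with 778 higher and 912 lower without the 28 h libraries, and 349 higher and 230 lower without those of 8 h. Lower calls were 233 without 12 h, 220 without 44 h and 237 without 48 h. Plate set and time cannot be told apart in this contrast, and as no time has replicates, p-values measure the spread over times.

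The second test asked for a 24 h rhythm at pH 7.4, since dexamethasone sets the clocks of the cells in step. TXNIP had peaks of 8.17 FPKM at 12 h and 4.89 FPKM at 40 h, with troughs of 1.57 FPKM at 4 h and 1.71 FPKM at 28 h. Its fitted amplitude was 0.62 on the log2 scale with a peak at 14.2 h, and its unadjusted p was 0.00462. After adjustment over all genes it did not pass (limma, adjusted p = 0.999), and none of the 7 members was called, where 0.0422% of all genes (5) were. The other 6 members had unadjusted p-values from 0.112 to 0.734 (limma). The library at the 12 h peak is the one of 9.71 M fragments, and without it the amplitude was 0.55. Of all 11838 tested genes, 443 had an unadjusted p under 0.05, fewer than that threshold alone would give with no rhythm in any gene. A member that was not called is thus not shown to lack a rhythm. With the 13 neutral libraries alone the limma adjusted p for TXNIP was 0.337, no member was called and 2 genes were.

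The partners of these proteins were followed in lists of genes of the same pathways, tested over all genes. Across the table, limma with the time as a block called 22.4% of tested genes higher at pH 6.3 (2651) and 37.3% lower (4415). With quantile scaling these were 3348 and 3611, and with the GC correction 3732 and 3859, and the median of all genes was −0.02 and −0.01 in place of −0.12. Higher calls made up 37.5% of all calls as deposited, 48.1% with quantile scaling and 49.2% with the GC correction. Of the 78 list genes tested, 17 were called higher, 26 lower and 35 neither, close to those shares, and their median was −0.13.

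The wider MYC, MAX and MLX network of E box factors held more genes called higher than lower, with 6 of 10 tested genes called higher and 2 lower and a median of 0.57. MNT, a repressor that pairs with MAX and MLX, rose from 3.24 ± 0.90 to 7.66 ± 2.68 FPKM (log2 difference 0.98, SE 0.15, limma adjusted p = 3.39e-05), at 13 of 13 times. MXD4, another repressor of the network, rose by 0.93 (SE 0.17, limma adjusted p = 0.000198). MYC, their activating counterpart, rose as well, from 13.2 ± 6.78 to 22.5 ± 11.9 FPKM (0.71, SE 0.11, limma adjusted p = 3.72e-05), at 12 of 13 times. MYCN, a relative of MYC under the level set for naming genes and named after its values were seen, went the other way, from 4.37 ± 1.96 to 0.256 ± 0.152 FPKM (−1.97, SE 0.19, limma adjusted p = 6.61e-07), at 13 of 13 times. MGA, which also pairs with MAX, fell by 0.48 (SE 0.10, limma adjusted p = 0.000793), at 13 of 13 times. ChREBP (MLXIPL), the other glucose-sensing partner of MLX, was at most 0.121 FPKM, listed at 0 in 16 of 26 libraries and not tested.

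The thioredoxin system, which TXNIP inhibits, showed small differences in both directions: of 14 genes 2 were called higher, 4 lower and 8 neither, with a median of −0.12. TXN, the thioredoxin that TXNIP binds, was 144 ± 10.2 FPKM at pH 7.4 and 134 ± 25.1 FPKM at pH 6.3 (SD, n = 13) and did not pass (limma adjusted p = 0.143). PRDX6, a peroxiredoxin, rose by 0.31 (SE 0.06, limma adjusted p = 0.000349). SRXN1, which repairs oxidized peroxiredoxins, fell by 0.47 (SE 0.13, limma adjusted p = 0.00566). TXNRD1, the reductase of thioredoxin, had a difference of 0.45 (limma adjusted p = 0.0407) that missed the threshold in 10 of 20 alternatives, among them without any one of 8, 12, 16, 20, 24, 32 or 36 h. NXN, a thioredoxin-like protein, had −0.36 (limma adjusted p = 0.0428) and missed it in 12 of 20, among them without any one of 16, 20, 24, 28, 32, 36, 40, 44 or 52 h. With the GC correction 2 of the list were called lower, since PRDX1 and PRDX3 no longer passed. In acidic medium the TXNIP level, 199.8 ± 73.6 FPKM, and that of TXN overlapped within their SDs, whereas in neutral medium TXNIP was at 4.08 FPKM.

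Genes of glucose uptake and glucose 6-phosphate split, with 4 of 15 called higher, 4 lower and 7 neither, and a median of −0.21. Of the lower calls, PGM1 (−0.21, limma adjusted p = 0.0439) held in only 6 of 20 alternatives. HK2, a hexokinase that makes glucose 6-phosphate, rose from 2.31 ± 1.81 to 9.61 ± 3.61 FPKM (1.72, SE 0.19, limma adjusted p = 2.96e-06), at 12 of 13 times. GFPT1, the entry enzyme of hexosamine synthesis, rose from 41.8 ± 8.55 to 106 ± 21.3 FPKM (1.31, SE 0.14, limma adjusted p = 2.27e-06). SLC2A12, a glucose transporter, fell by 2.39 (SE 0.30, limma adjusted p = 7.09e-06), and SLC37A4, which carries glucose 6-phosphate into the endoplasmic reticulum, fell by 0.60 (SE 0.15, limma adjusted p = 0.00278). SLC2A1, the transporter best known as a target of TXNIP, had 33.1 ± 9.05 and 33.5 ± 8.63 FPKM and did not pass (limma adjusted p = 0.918). SLC2A3, another glucose transporter, rose from 25.2 ± 9.97 to 52.2 ± 18.7 FPKM (1.08, SE 0.17, limma adjusted p = 5.95e-05), at 13 of 13 times.

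Other targets ascribed to ChREBP and MondoA were mostly lower. Of 9 tested, none was called higher, 6 were called lower and 3 neither, with a median of −0.45. In 9 of 20 alternatives 1 was called higher: with quantile scaling, upper-quartile scaling, the GC correction or no time block, and without any one of 4, 8, 20, 24 or 28 h. Of the lower calls, SCD (−0.34, limma adjusted p = 0.0241) held in 13 of 20. ELOVL6, which lengthens fatty acids, fell by 0.87 (SE 0.20, limma adjusted p = 0.00155), and RGS16, a regulator of G protein signalling, fell by 0.78 (SE 0.21, limma adjusted p = 0.00413), each at 10 of 13 times. Several genes of this list make fatty acids and are known as targets in liver, so the list is not specific to MondoA.

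The NEDD4 family ligases that alpha-arrestins recruit were mostly lower, with 6 of 9 called lower, 1 higher and 2 neither, and a median of −0.37. WWP2 fell from 26.2 ± 4.19 to 12.0 ± 4.32 FPKM (log2 difference −1.11, SE 0.13, limma adjusted p = 3.06e-06), at 13 of 13 times, and NEDD4 fell by 0.42 (SE 0.09, limma adjusted p = 0.000730). ITCH, the ligase that ubiquitinates TXNIP itself, rose from 33.7 ± 3.72 to 58.8 ± 16.2 FPKM (0.73, SE 0.11, limma adjusted p = 3.74e-05). Of the 6 lower calls, WWP1, SMURF2 and HECW2 were lost in 2 or 3 of 20 alternatives each, SMURF2 among them without 24 h, and with quantile scaling or the GC correction 2 were called higher. The family thus did not move as 1 group.

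The other lists gave few calls. Of 10 ESCRT partners of ARRDC1, 2 were called higher, 2 lower and 6 neither, with a median of −0.05. The lower count was 1 without any one of 16, 20, 24, 28, 32, 36, 40, 48 or 52 h, where MVB12B (−0.30, limma adjusted p = 0.0442) no longer passed. PDCD6IP (ALIX), which links ARRDC1 to budding, fell by 0.67 (SE 0.08, limma adjusted p = 5.75e-06), while MVB12A rose by 0.56 (SE 0.19, limma adjusted p = 0.0203) and VPS4A by 0.34 (SE 0.10, limma adjusted p = 0.0113). Of 5 other arrestin-fold genes, VPS26A, a retromer subunit, fell by 0.64 (SE 0.09, limma adjusted p = 2.19e-05) and 4 were called neither way. Of 6 subunits of AMP-activated kinase, which phosphorylates TXNIP, 2 were called higher, 1 lower and 3 neither, with a median of 0.23. The higher count was 1 without any one of 24, 28 or 52 h and 3 without any one of 4, 8, 40 or 44 h. PRKAB1 rose by 0.62 (SE 0.19, limma adjusted p = 0.0113) and PRKAA1, a catalytic subunit, fell by 0.35 (SE 0.07, limma adjusted p = 0.000355). With the GC correction 4 ESCRT genes, 2 arrestin-fold genes and 4 kinase subunits were called higher.

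**Figure D4:**
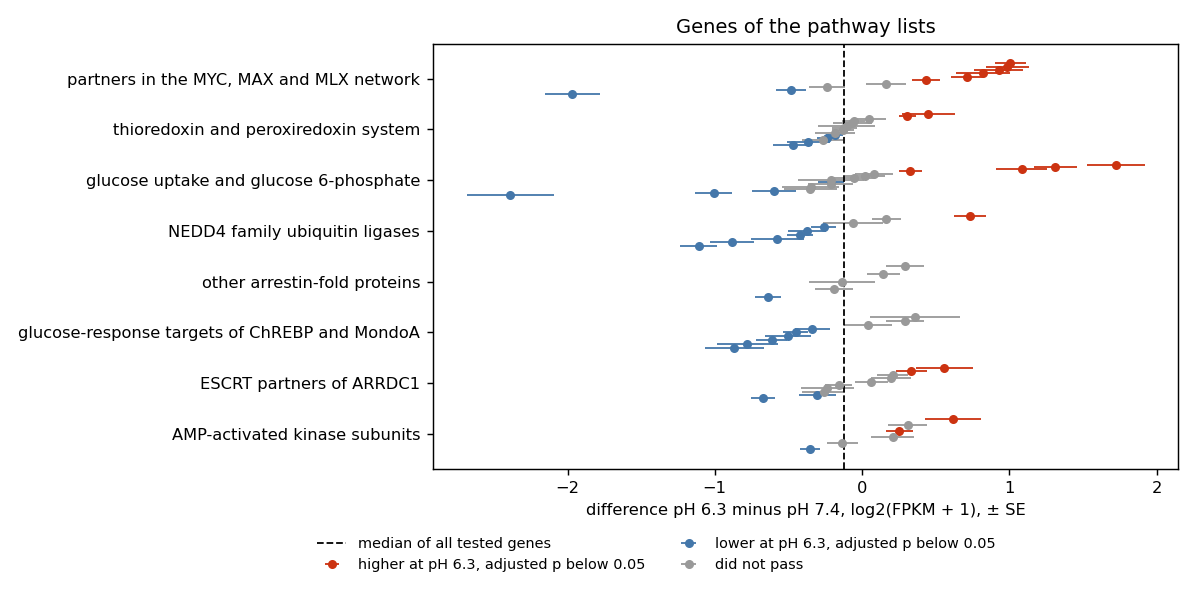
Log2 difference, pH 6.3 minus pH 7.4 on log2(FPKM + 1), with its SE for each tested gene of 8 pathway lists, red where called higher, blue where called lower and grey where not called, with the median of all tested genes as a dashed line. The MYC, MAX and MLX list has 6 genes in red, the NEDD4 ligases have 6 in blue, and no gene of the ChREBP and MondoA target list is red.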

How the data were processed

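One polyadenylated RNA library was made for each medium and time. The authors deposited 1 table of FPKM values for 26 libraries (19806 rows), and the submitters' processing notes name STAR, Cufflinks and hg38. The sources used here do not give their versions, the annotation or the strand option. Gene coordinates and GC content were taken from GENCODE 29 (GRCh38). The row with the highest mean stood for each of 101 repeated symbols. Values were analysed as log2(FPKM + 1) with limma 3.58.1 in R 4.3.3 for genes averaging at least 1 FPKM, with a trend in the empirical Bayes step and Benjamini-Hochberg adjustment at 0.05. The acid fit had the time point as a block, the contrast of plate sets used 4 groups, and the rhythm fit had 24 h terms and a linear trend for each pH. Depth came from the spacing of low values in single-transcript genes of at least 1000 bases, of which 87.4% to 94.0% lay within 0.1 of a whole number of fragments. No libraries held identical values. The tests were checked on simulated data with independent noise for each gene and library. That check does not cover dependence between successive times, plate sets or effects of GC content.

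The members, lists and tests were chosen with earlier results of these data known. From each list up to 2 genes called in each direction with the largest difference and at least 5 FPKM in the higher group were named, plus the 7 members, MYC, and the 5 and 3 genes most like TXNIP and ARRDC4. TXN, SLC2A1, SLC2A3, MLXIPL, MYCN, PRDX1, PRDX3, MVB12B, WWP1, SMURF2, HECW2, PGM1 and SCD were named outside that rule, for their roles or calls. The genes of the promoter spelling were also named outside it, for their sequence. Alternatives were the pseudocount (0.1), no filter, quantile and upper-quartile scaling, each time left out, 6 libraries of doubtful depth or GC content left out, and no block. The GC correction, the left-out neutral libraries, upper-quartile scaling for onset, and the pseudocount and upper-quartile scaling for plateau were chosen after seeing the data.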

Additional observations from a re-analysis of the deposited data

Results flagged for a closer look

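Groups of 6 or 7 libraries (1 medium in 1 set of plates) of each member were searched for a library far from the rest, 28 groups in all, where chance marks about 1 in 20. ARRDC1 at pH 6.3 had 7.47 FPKM at 20 h, against 2.26 to 4.02 FPKM in the other libraries of 4 to 24 h. That library is one of the 4 with a GC correlation, and with the GC correction the ARRDC1 log2 difference at 20 h was 0.21 in place of 0.84. MLX at pH 7.4 had 23.1 FPKM at 8 h, against 27.4 to 29.7 FPKM in the other libraries of 4 to 24 h.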

How the results depend on the processing

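The mean acid difference of every member kept its sign in all 19 alternatives run for it: 5.14 to 5.53 for TXNIP, 1.87 to 2.66 for ARRDC4, 0.78 to 1.03 for ARRDC3 and 0.57 to 0.78 for MLXIP. The small differences moved more: 0.0539 (without 48 h) to 0.36 (quantile scaling) for ARRDC1, with 0.28 without 28 h, 0.0861 without 44 h and 0.0939 without 20 h, 0.21 to 0.43 for ARRDC2, and 0.10 to 0.26 for MLX. Onset of TXNIP, ARRDC4 and MLXIP did not move in the 5 alternatives. That of ARRDC3 was 16 h with a 1.5-fold rule and 52 h with quantile or upper-quartile scaling. The 1.5-fold rule was run on the deposited values as log2(FPKM + 1) only. In FPKM, ARRDC4 was 1.53-fold higher at 4 h, 1.75-fold at 8 h and 1.92-fold at 12 h. With the GC correction the MLXIP difference was 0.77, 0.97 and 0.80 at 20, 24 and 28 h. The onsets of ARRDC4 and MLXIP are thus those of passing 2-fold. The plateau at 90% was 36 h for TXNIP and 40 h for ARRDC4, and 40 h for ARRDC4 with the GC correction. Without the time block, which here is the replicate block, 2685 genes were called higher and 4492 lower, within 1.5 times the counts given. Over all lists 16 to 25 genes were called higher and 21 to 28 lower. In the contrast of plate sets at pH 7.4, higher calls were 288 without the 6 libraries and 341 without 28, 44 and 48 h, and 349 (without 8 h) to 778 (without 28 h) with single times left out. Lower calls were 685 with the GC correction, 204 and 229 with those same libraries out, and 220 (without 44 h) to 912 (without 28 h) with single times out. The uncalled member values there changed sign around 0: TXNIP was 0.19 without the 6 libraries and 0.0239 without 28, 44 and 48 h, ARRDC3 −0.0204 with quantile scaling, −0.0802 with the GC correction and −0.0300 without 28, 44 and 48 h, and ARRDC4 0.0021 with a pseudocount of 0.1, 0.0044 with quantile scaling, 0.0098 with upper-quartile scaling and 0.0265 without the 6 libraries. With single times out, TXNIP ran from −0.37 to 0.00018, ARRDC3 from −0.0815 to 0.165 and ARRDC4 from −0.0358 to 0.0421. ARRDC1 passed with the GC correction alone (0.42, limma adjusted p = 0.0138, range over alternatives 0.0138 to 0.751). Rhythm calls (5) were 3 without the 6 libraries, 0 with no linear trend (no gene at a limma adjusted p under 0.05), 2 with the 13 neutral libraries alone and 2 to 5 with single times out. For TXNIP the rhythm amplitude was 0.51 to 0.78 and its lowest limma adjusted p 0.337. Apart from these settings the causes were not tested. Low levels limit ARRDC4, whose neutral values rest on 43.5 to 139 estimated fragments a library.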

Other observations

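Genes that share the TXNIP promoter spelling (CACGNG, 5 free bases, CACGNG) did not move as 1 group. Of the 9 tested genes that hold it besides TXNIP, 5 were called higher at pH 6.3, 3 lower and 1 neither (limma, Benjamini-Hochberg over all genes), where 22.4% of all tested genes were higher and 37.3% lower. The 5 were GFPT1 (log2 difference 1.31), RCN3 (1.07), an endoplasmic reticulum calcium-binding protein, STX12 (0.59), a SNARE of endosomes, P4HA1 (0.52), a subunit of collagen prolyl hydroxylase, and KCTD5 (0.49). TIGD1 fell by 0.58, MTHFS, an enzyme of folate metabolism, fell by 0.48, and RAN, the GTPase of nuclear transport, fell by 0.14, while AKAP10 had 0.03 and did not pass. Their median was 0.49, and the largest difference, that of GFPT1, lay below the 5.21 of TXNIP. With the looser spelling 79 genes were tested, of which 15 were called higher, 33 lower and 31 neither, with a median of −0.16 against −0.12 for all genes.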
